A study of Mus musculus with 2 samples.

Results

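Small nucleolar RNAs (snoRNAs) guide the chemical modification and cleavage of ribosomal and other RNAs, and most mammalian snoRNAs lie in introns of longer genes, called hosts. The 8 genes described here, Gas5, Snhg1, Snhg3, Snhg5, Snhg6, Snhg8, Snhg12 and Snhg15, are hosts that encode no known conserved protein. They were chosen by gene symbol and not by a cut-off on a measured value, but with earlier results of these data known. All 8 were found among 55536 annotated genes. The RNA came from a nuclear fraction of bone marrow-derived macrophages, primary cells grown from C57BL/6J mouse marrow, and was sequenced after removal of ribosomal RNA. The cells received 100 ng/ml Lipid A, the part of endotoxin that activates the receptor TLR4, for 12 h, went without it for 12 h, and then received the same dose for 60 min. Both libraries belong to this 1 group. They are labelled biological replicates with 1 donor identifier, replicate 1 made from 1 µg of RNA and replicate 2 from 500 ng. No untreated or singly treated cells were analysed here, so no value below is a response to Lipid A, and no condition could be tested.

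A host gene is transcribed as 1 precursor. Splicing removes the introns, the excised introns are trimmed to the snoRNA, which binds its partner proteins and moves to the nucleolus, and the joined exons form the host's own long non-coding RNA. A transcript that leaves a snoRNA inside an exon does not yield that snoRNA by this route. Many host RNAs begin with a run of pyrimidines, the terminal oligopyrimidine (TOP) motif of ribosomal protein messages, and are broken down by nonsense-mediated decay once they reach ribosomes. Gas5 was first found as a gene whose RNA accumulates in growth-arrested cells. A nuclear preparation holds precursors and spliced products that have not left the nucleus.

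The hosts carry both snoRNA classes, and examples are shown because the later results turn on how short they are and where they lie. Box C/D snoRNAs, named Snord or by a Gm number here, direct 2′-O-methylation. In the first 3 sequences the capitals mark the box C letters TGATG within about the first 20 bases and the box D letters CTGA within the last 20. Gm22357 (chr1:161036057-161036139, plus strand), Snord78 (chr1:161036984-161037049, plus strand) and Snord47 (chr1:161038082-161038158, plus strand) lie within Gas5. Snord22 (chr19:8725866-8725991, plus strand), in Snhg1, is a longer member of the class that takes part in processing of small-subunit ribosomal RNA, and only its box D letters matched. Snora73a (chr4:132352775-132352979, minus strand), in Snhg3, is an H/ACA snoRNA, the class that directs pseudouridylation, though this one acts in ribosomal RNA processing. Its capitals mark the letters ACA within the last 8 bases. Sequences are from the GENCODE M21 transcripts (build mm10), 5′ to 3′.
Gm22357: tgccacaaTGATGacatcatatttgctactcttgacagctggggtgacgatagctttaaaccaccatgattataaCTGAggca
Snord78: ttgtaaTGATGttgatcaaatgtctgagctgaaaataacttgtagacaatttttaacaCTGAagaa
Snord47: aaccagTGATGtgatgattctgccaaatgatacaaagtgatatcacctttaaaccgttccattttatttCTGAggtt
Snord22: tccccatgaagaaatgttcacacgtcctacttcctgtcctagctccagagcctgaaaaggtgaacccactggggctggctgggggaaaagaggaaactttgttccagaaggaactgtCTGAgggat
Snora73a: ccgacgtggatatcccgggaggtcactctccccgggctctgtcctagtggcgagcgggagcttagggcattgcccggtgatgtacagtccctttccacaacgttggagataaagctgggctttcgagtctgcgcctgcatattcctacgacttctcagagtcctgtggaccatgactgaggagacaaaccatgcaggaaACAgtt

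The annotation places 30 snoRNA rows on the strand of the 8 hosts. Since 2 rows (1 of Snord80 in Gas5, 1 of Snora16a in Snhg12) lie within another row of the same symbol, these are 28 separate loci. Gas5 holds 10 rows, Snhg1 8, Snhg12 5, Snhg3 and Snhg5 2 each, and Snhg6, Snhg8 and Snhg15 1 each. The loci are 60 to 205 bases long. Of the 21 loci not named Snora, 19 had both box C and box D letters in the stated windows, as had 23.3% of all 1558 annotated snoRNA and scaRNA genes. Of the 7 Snora loci, 6 had ACA within the last 8 bases, as had 47.6% of the same 1558 genes. Letters were read on the RNA's own strand.

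The host RNAs were present at moderate levels, and Gas5 stood above the others. Levels are given in TPM, a share of all transcripts that is corrected for length and scaled to a fixed total. Gas5 (ENSMUSG00000053332.13, chr1:161034422-161038539, plus strand) had 42.9 and 37.3 TPM in replicates 1 and 2, or 40.1 ± 3.96 TPM (SD, n = 2). Both Gas5 values lay above every value of the other 7 hosts, of which the highest was 20.1 TPM. In a bulk preparation, fewer nuclei with an RNA and less of it per nucleus cannot be told apart.

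Snhg8 (ENSMUSG00000104960.1, chr3:123507552-123508404, minus strand), host of Snora24, had 20.1 and 9.62 TPM in replicates 1 and 2. Snhg1 (ENSMUSG00000108414.1, chr19:8723475-8726443, plus strand), which holds Snord22 and 7 other snoRNA loci, had 16.6 and 9.74 TPM. The mean of Snhg8 was 14.8 ± 7.38 TPM and that of Snhg1 13.2 ± 4.84 TPM (SD, n = 2 each). Their order turned between the libraries, and their ranges overlapped. Snhg6 (ENSMUSG00000098234.7, chr1:9941959-9944118, minus strand), host of Snord87, had 10.02 and 5.34 TPM. Snhg15 (ENSMUSG00000085156.7, chr11:6525591-6528760, minus strand), host of Snora9, had 8.39 and 6.10 TPM. Snhg12 (ENSMUSG00000086290.9, chr4:132308623-132311024, plus strand) had 7.77 and 4.13 TPM. It carries Snora16a, Snora44, Snora61 and Snord99, so both classes in 1 host.

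Snhg3 (ENSMUSG00000085241.7, chr4:132348014-132353686, minus strand), the host of Snora73a and Snora73b, had 6.51 and 4.38 TPM. Snhg5 (ENSMUSG00000097195.9, chr9:88521050-88522929, minus strand), which holds Snord50a and Snord50b, had 4.90 and 4.71 TPM. From Snhg8 down to Snhg5, each host's range over the 2 libraries overlapped that of the next host, so neighbours in the order were not separated beyond the spread. Hosts farther apart in the order could be in these estimates: both values of Snhg8 and of Snhg1 lay above every value of Snhg15, Snhg12, Snhg3 and Snhg5. The second set of estimates given below does not separate Snhg8 from Snhg15. Snhg3 shares 135 exonic bases with Rcc1 on its own strand (2.63 and 1.34 TPM for Rcc1) and 705 with the antisense Gm17300 (4.52 and 2.92 TPM). Snhg6 shares 127 exonic bases with the antisense Mcmdc2 (1.29 and 1.67 TPM). Reads from these overlaps may have been divided between the genes, and whether strand was used is not given in the sources used here.

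**Figure D1:**
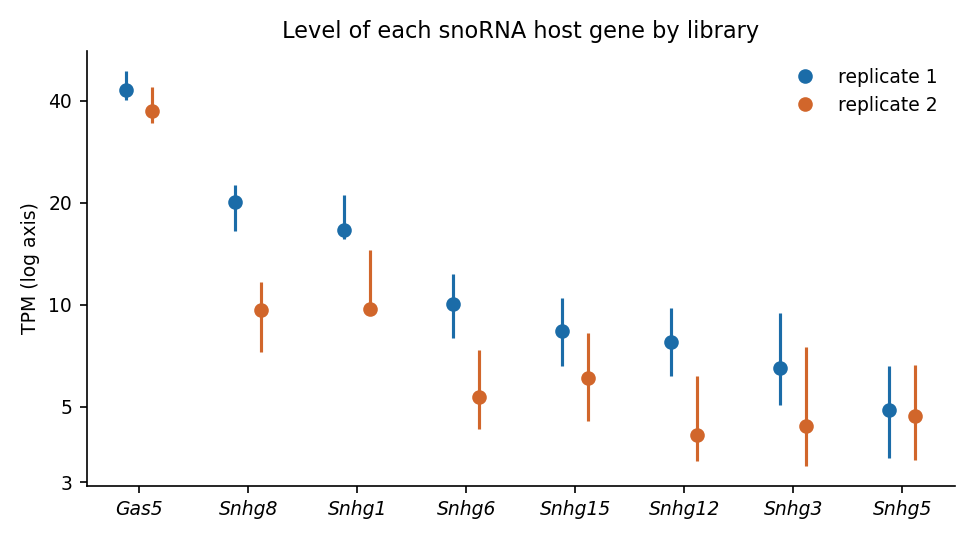
Level of each host in TPM (log axis) in replicates 1 and 2, ordered by mean level. Points are the deposited values and vertical lines the deposited TPM interval of each library, whose confidence level is not stated; the interval accompanies a posterior mean, and the point of Snhg1 in replicate 2 (9.74) lies just under its interval. Gas5 lies above all other points in both libraries.

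All 8 hosts reached 1 TPM in both libraries, a level reached by 6.57% of 10155 annotated long non-coding genes, 19.0% of all genes and 39.9% of protein-coding genes. Only Gas5 reached 10 TPM in both, as did 1.04% of long non-coding genes and 6.53% of all genes. None reached 100 TPM, a level reached by 0.0985% of long non-coding, 1.43% of protein-coding and 0.688% of all genes. These numbers depend on the scaling: with TPM rescaled over protein-coding and long non-coding genes outside the mitochondrial genome, all 8 hosts reached 10 TPM and Gas5 reached 100 TPM. In replicate 1 alone 4 hosts reached 10 TPM. The order by mean TPM placed Gas5 at 41 among the long non-coding genes, Snhg8 at 92, Snhg1 at 106, Snhg6 at 170, Snhg15 at 182, Snhg12 at 216, Snhg3 at 232 and Snhg5 at 252. Since 2 libraries give no pattern over samples, likeness was measured as the distance in log2 mean TPM to the next long non-coding gene above and below. For Gas5 these were Gm16712 (41.9 TPM, a distance of 0.06) and Gm26778 (35.7 TPM, a distance of -0.17). For Snhg8 they were 6530409C15Rik and Gm27177 (14.9 and 14.6 TPM), and for Snhg1 Gm14005 and Gm15628 (13.2 and 13.1 TPM). The neighbours of Snhg6 were Gm41409 and AC121821.1, and those of Snhg15 were Gm37233 and 1110038B12Rik. Snhg12 stood between Gm19967 and Gm49172, Snhg3 between Gm15708 and Tmem250-ps, and Snhg5 between Gm45606 and Gm15478. No neighbour of these 5 hosts was farther away than 0.021 on the log2 scale.

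A second set of transcript estimates deposited for the same libraries, from another quantifier, gave lower TPM for every host. It placed Gas5 first again, at 13.3 and 18.9 TPM, with Snhg8 at 6.20 and 4.50 TPM and Snhg1 at 6.18 and 5.05 TPM. The remaining 5 hosts lay between 1.70 and 4.81 TPM. The upper value was that of Snhg15 in replicate 2 and lay above Snhg8 in the same library. In this second set Gas5, Snhg3, Snhg5 and Snhg15 were higher in replicate 2 and the other 4 hosts lower, whereas in the first set all 8 were lower in replicate 2. The median protein-coding gene outside the mitochondrial genome also had lower TPM in replicate 2 in the first set, by a log2 ratio of -0.46.

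Because TPM moved between the libraries as a whole, the replicates were also compared on expected counts scaled by TMM, which centres the libraries on the bulk of genes. Gas5 had 682 expected counts in replicate 1 and 509 in replicate 2, a ratio of replicate 2 over replicate 1 of 1.14 after scaling (95% exact binomial interval 1.02 to 1.28). Snhg8 had 189 and 83 counts, a ratio of 0.674 (0.512 to 0.874). Snhg12 had 130 and 62 counts, a ratio of 0.732 (0.530 to 0.994). These were the 3 hosts whose interval excluded 1. The intervals cover counting error only, and with 1 library on each side they compare libraries and not conditions.

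The other 5 hosts did not differ beyond counting error. Snhg1 (357 and 219 counts) had a ratio of 0.939 (95% exact binomial interval 0.789 to 1.11) and Snhg6 (100 and 64 counts) 0.981 (0.704 to 1.35). Snhg15 (80.1 and 46 counts) had 0.883 (0.598 to 1.28) and Snhg3 (47.8 and 26.3 counts) 0.836 (0.493 to 1.36). Snhg5 (71 and 61 counts) had 1.32 (0.918 to 1.88). On the log scale the interval was widest for Snhg3, which had the fewest counts.

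None of the 8 hosts was over 2-fold apart between the replicates, against 8.59% of the 14052 genes that averaged at least 10 counts (4.16% lower and 4.43% higher in replicate 2). Snhg8 was farthest apart, with a log2 ratio of -0.57, and passed 2-fold when deposited TPM with a pseudocount of 0.1 was used instead (-1.05). Counts were lower in replicate 2 for 6 of 8 hosts, against 49.6% of all genes tested and 43.5% of 1278 long non-coding genes. The median log2 ratio was -0.14 over the hosts, 0.00 over all genes and 0.10 over long non-coding genes. Across 6 settings of normalisation and quantifier the direction turned for Gas5 and Snhg5, each lower in replicate 2 in 2 of the 6, and stayed lower in replicate 2 for the other 6 hosts.

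**Figure D2:**
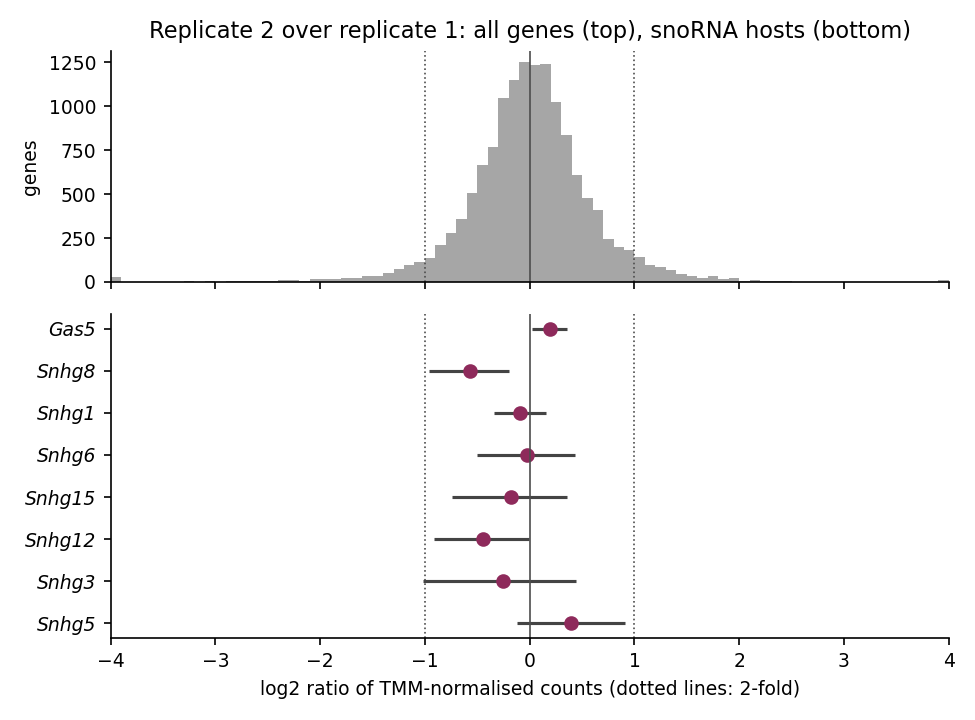
Top, distribution over 14052 genes of the log2 ratio of TMM-normalised expected counts, replicate 2 over replicate 1, with genes beyond the axis drawn in the end bins. Bottom, the same ratio for each host with its 95% exact binomial interval; all 8 points lie within the dotted 2-fold lines, and the intervals of Gas5, Snhg8 and Snhg12 exclude 0.

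How much of each host RNA still held a snoRNA was read from the transcript table. A transcript was counted as snoRNA-keeping when a whole snoRNA of the same strand lay inside 1 of its exons. Of 76 annotated transcripts of the 8 hosts, 39 are of this kind. They come from 6 hosts, since no annotated transcript of Snhg3 (5 transcripts) or Snhg6 (5) keeps a snoRNA, and the share of 0 there is set by the annotation. The tables used here have no entry for the unspliced precursor, so its reads could only be assigned to annotated transcripts, snoRNA-keeping ones included.

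In Gas5, Snhg1, Snhg8 and Snhg12 between 34.2% and 54.1% of TPM was assigned to snoRNA-keeping transcripts. The share of TPM was 35.3% in replicate 1 and 36.5% in replicate 2 for Gas5, or 35.9 ± 0.838% (SD, n = 2). Snhg8 had 34.2% and 41.4%, a mean of 37.8 ± 5.06%. Snhg1 had 38.9% and 49.7%, a mean of 44.3 ± 7.63%. Snhg12 had 54.1% and 37.9%, a mean of 46.0 ± 11.4%, and so the widest spread. The range of Gas5 lay inside that of Snhg8, the ranges of Snhg8, Snhg1 and Snhg12 overlapped, and the order differed between the libraries.

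Snhg5 and Snhg15 lay lower in both libraries. Snhg5 had 17.1% and 21.3% (19.2 ± 2.95%) on transcripts that keep Snord50a. Snhg15 had 13.2% and 8.18% (10.7 ± 3.58%) on the 1 transcript that keeps Snora9. Neither range overlapped that of the other 4 hosts. Over the 6 hosts with such transcripts the median share was 34.8% in replicate 1 and 37.2% in replicate 2.

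**Figure D3:**
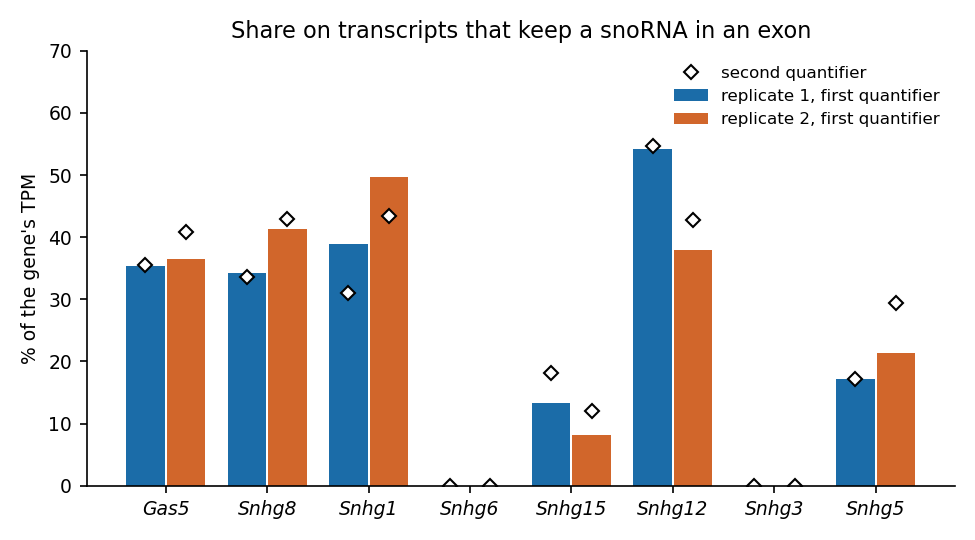
Share of each host's TPM on transcripts that keep at least 1 whole snoRNA in an exon, in replicates 1 and 2 (bars, first quantifier) and in the second quantifier (diamonds). Gas5, Snhg8, Snhg1 and Snhg12 lie between 34.2% and 54.1% in the bars, Snhg15 and Snhg5 between 8.18% and 21.3%, and Snhg6 and Snhg3 are at 0 because no annotated transcript qualifies.

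The snoRNA-keeping transcripts that lead these hosts are longer than spliced ones, so their share of counts was higher. In Gas5 they held 60.7% of expected counts in replicate 1 (95% exact binomial interval 56.9 to 64.4) and 62.5% in replicate 2 (58.1 to 66.7). In Snhg1 they held 71.2% (66.1 to 75.8) and 79.6% (73.5 to 84.6). Snhg12 had 74.1% (66.2 to 81.8) and 62.1% (49.7 to 74.8), and Snhg8 54.3% (47.1 to 61.7) and 63.1% (51.3 to 73.0). For each of these 4 hosts the intervals of the 2 libraries overlapped. Snhg5 had 21.04% (12.3 to 32.4) and 25.8% (15.8 to 39.1). Snhg15 had 17.1% (9.9 to 27.6) and 11.6% (3.6 to 23.6). The intervals cover counting error only and leave out how reads were assigned to transcripts. By counts of the second quantifier Snhg1 had 60.4% and 73.2%, each below its interval. The second quantifier's shares of the other hosts named in this paragraph lay inside their intervals.

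Other hosts were measured in the same way for comparison. Of 201 protein-coding genes that reached 1 TPM in both libraries and hold a snoRNA, 43 have a snoRNA-keeping transcript. Their median share of TPM was 9.63% in replicate 1 and 12.5% in replicate 2, with quartiles of 4.99 and 21.2% and of 8.01 and 22.4%. Gas5, Snhg1, Snhg8 and Snhg12 lay above the upper quartile in both libraries, and Snhg5 and Snhg15 did not. Among 16 other long non-coding hosts at that level, 9 have such a transcript, with medians of 44.9% and 51.0%. Their quartiles were 34.6 and 57.5% in replicate 1 and 40.1 and 61.6% in replicate 2. By medians the 4 hosts thus lay nearer to other non-coding hosts than to protein-coding ones, and Snhg5 and Snhg15 nearer to protein-coding ones. Gas5 and Snhg12 in replicate 2 and Snhg8 in replicate 1 lay below the lower quartile of the non-coding hosts. This is a description, since annotated transcripts differ in number between gene classes and snoRNAs between hosts, and the difference was not tested.

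By TPM the leading transcript of each host was a spliced one. Gas5-224, with 12 exons and 502 bases, had 17.8 and 15.2 TPM in replicates 1 and 2. The highest snoRNA-keeping transcript of Gas5, Gas5-218, holds 6 of the snoRNAs in 4 exons and 2556 bases and had 3.13 and 2.90 TPM. By expected counts Gas5-218 was the larger, with 194 and 160 counts against 138 and 101 for Gas5-224. In Snhg1 the spliced Snhg1-211 (10 exons, 605 bases) had 8.26 and 4.90 TPM, but the second quantifier gave it 0.27 and 0.06 TPM. There the spliced Snhg1-207, whose annotated start lies farther downstream, led with 3.88 and 2.80 TPM, against 0.88 and 0 TPM in the first set. Both sets put a spliced transcript first by TPM, and which one depends on the quantifier. Snhg1-215, which keeps 7 of the 8 snoRNAs in 2 exons, had 2.41 and 1.97 TPM. By expected counts in the first set Snhg1-215 was larger, with 160 and 117 against 86.4 and 44.8 for Snhg1-211. Not every transcript labelled retained intron keeps a snoRNA: Gas5-220, of that label, keeps none and had 5.27 and 1.64 TPM.

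Snhg8 has 3 annotated transcripts. The spliced Snhg8-201 had 11.9 and 5.64 TPM, and Snhg8-202, a single exon of 776 bases that holds Snora24, had 6.86 and 3.98 TPM. By expected counts Snhg8-202 was larger, with 103 and 52.4 against 75.6 and 30.6. In Snhg12 the spliced Snhg12-206 had 2.80 and 2.57 TPM and Snhg12-208, which keeps Snora16a, 1.19 and 0.57 TPM. Snhg12-208 had more counts in replicate 1 (36.2 against 29.4) and fewer in replicate 2 (15.6 against 23.5). The leading transcripts of the low hosts were Snhg15-202 (2.99 and 2.36 TPM), Snhg5-203 (2.11 and 1.93 TPM) and Snhg3-204 (4.29 and 3.32 TPM). Their snoRNA-keeping counterparts were Snhg15-203 with Snora9 (1.11 and 0.50 TPM) and Snhg5-204 with Snord50a (0.84 and 1.00 TPM), and Snhg3 has none. In Snhg6 the estimates for single transcripts were unstable: Snhg6-205 had 3.37 and 4.10 TPM, while Snhg6-203 had 3.29 TPM in replicate 1 and was listed at 0 in replicate 2.

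Within a host the introns differed. For each snoRNA the kept share is the TPM of transcripts that hold it in an exon over the TPM of all transcripts that span its position. In Gas5 it was highest in the middle of the gene. Snord78, the fifth snoRNA, was kept in 24.8% of spanning TPM in replicate 1 and 21.2% in replicate 2. Gm22357, the third, was kept in 18.1% and 23.9%, and Gm23212, the fourth, in 13.9% and 14.5%. Toward the 3′ end the share fell to 3.33% and 5.70% for Snord80, 3.09% and 3.29% for Snord47, and 2.43% and 0% for Gm25789. The first pair, Gm26224 and Gm22489, lay between 7.79% and 9.25%, and Mir5117, a row that the annotation lists as a snoRNA, had 9.65% and 14.6%. The 2 highest and the 3 lowest loci were the same in both libraries, which share the same transcript models.

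In Snhg1 the kept share was higher along most of the gene. Gm22744 had 30.3% and 39.9%, and Gm24452 27.9% and 43.2%. Gm25855, the first, had 29.6% and 34.9%, but 81.3% and 96.3% in the second quantifier, where the leading Snhg1-207 begins inside it and so does not span it. The lowest locus in both libraries was Gm22680, the sixth of 8, at 9.41% and 10.5%. Snord22, the last, had 26.4% and 29.6%. All 8 loci of Snhg1 had a higher value in replicate 2. In Snhg12, Snora61 was kept in 36.0% and 26.6% of spanning TPM. In Snhg5 the 2 snoRNAs differed, Snord50a with 17.1% and 21.3% and Snord50b with 0% in both (0% and 12.1% in the second quantifier). Snora24 in Snhg8 had 34.2% and 41.4%, and Snora9 in Snhg15 20.6% and 13.3%. Loci of 1 host share transcripts, so these values are not independent of one another.

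**Figure D4:**
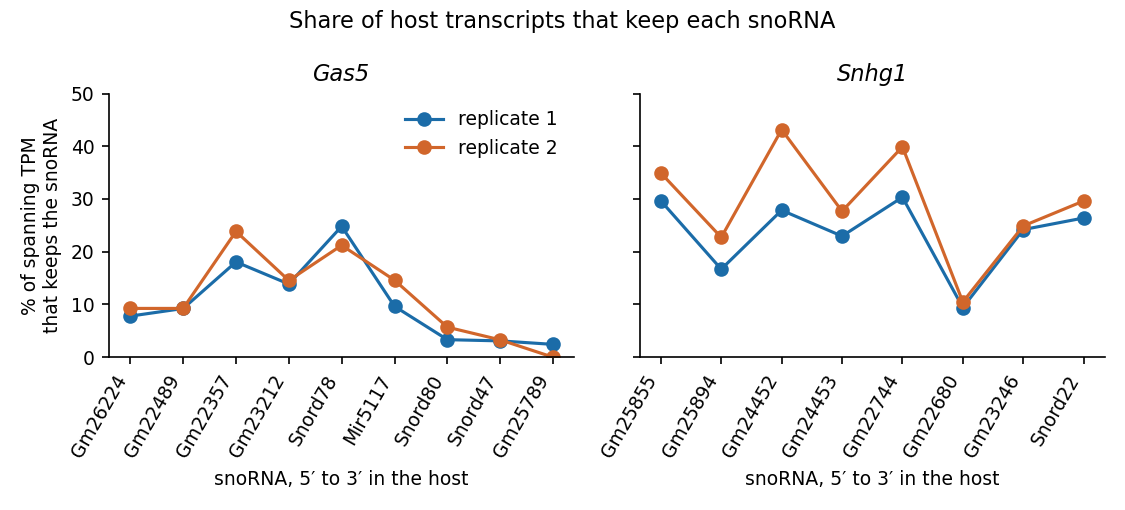
Percent of spanning TPM on transcripts that keep each snoRNA in an exon, for the snoRNAs of Gas5 (left) and Snhg1 (right) in 5′ to 3′ order; lines join the points of 1 library and carry no other meaning. In Gas5 the highest points are Gm22357 and Snord78 and the last 3 loci lie at or below 5.70%; in Snhg1 the lowest is Gm22680.

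The mature snoRNAs themselves were mostly outside what these libraries could measure. The labels give a size range for the library fragments that lies above the length of every snoRNA in these hosts. All 20 loci under 100 bases were at 0 counts in both libraries, and their effective length, the number of positions at which a fragment could start, was 0 as well. A count of 0 there says nothing of the snoRNA's level. None of the 462 annotated snoRNA and scaRNA genes under 100 bases was above 3 counts in either library. The 3 counts are the limit that a count of 0 allows where a fragment could be counted. At loci with an effective length of 0 they give no limit.

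Only 3 loci were above 3 counts in both libraries, all over 100 bases long: Snora73b and Snora73a in Snhg3, and Snord22 in Snhg1. Over all 1558 annotated snoRNA and scaRNA genes this share was 2.44%. Snora73b had 451 expected counts in replicate 1 and 45.3 in replicate 2, and Snora73a had 405 and 36.2. Snord22 had 381 and 13.0 counts. Replicate 1 was higher for all 3. The snoRNA rows of the 8 hosts together held 1251 counts in replicate 1 and 94.5 in replicate 2.

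After TMM scaling, Snora73b was 6.49-fold lower in replicate 2, with a ratio of 0.154 (95% exact binomial interval 0.110 to 0.208). Snora73a was 7.27-fold lower, with a ratio of 0.138 (0.0939 to 0.191). Snord22 was 18.5-fold lower, with a ratio of 0.0541 (0.0275 to 0.0903). These intervals cover counting error only. The second quantifier gave 495 and 74.5 counts for Snora73b, 448 and 69.9 for Snora73a, and 465 and 33.2 for Snord22, before scaling. All 3 were lower in replicate 2 there too, but the fold sizes depend on the quantifier. In the first quantifier the hosts of these snoRNAs did not move in this way, with ratios of 0.836 for Snhg3 and 0.939 for Snhg1. Among the 45 annotated snoRNA and scaRNA genes that averaged at least 10 counts, 62.2% were over 2-fold lower in replicate 2, against 4.16% of all genes tested. In the first quantifier the 3 loci, themselves among the 45, thus moved in the same direction as most measurable snoRNAs, but farther. Snora73b, Snora73a and Snord22 had log2 ratios of -2.70, -2.86 and -4.21, each below the median of its length class given next. The replicates differ in RNA input, as labelled, and in effective lengths, and the part of either in this gap was not tested.

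The gap was smaller in the longer length classes of annotated snoRNAs, which was not tested. Of 18 measurable genes shorter than 150 bases, 13 were over 2-fold lower and 3 over 2-fold higher in replicate 2, with a median log2 ratio of -2.80. Of 22 genes of 200 bases or more, 11 were over 2-fold lower and none over 2-fold higher, with a median of -1.02. The 5 genes of lengths between these had a median of -1.11. The effective length of Snora73a and Snora73b was 28.1 bases in replicate 1 and 20.8 in replicate 2, and that of Snord22 was 1.29 and 0 bases. Snord22 was therefore given 11251 and 0 TPM in replicates 1 and 2 for 381 and 13.0 counts, and its TPM was not used.

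**Figure D5:**
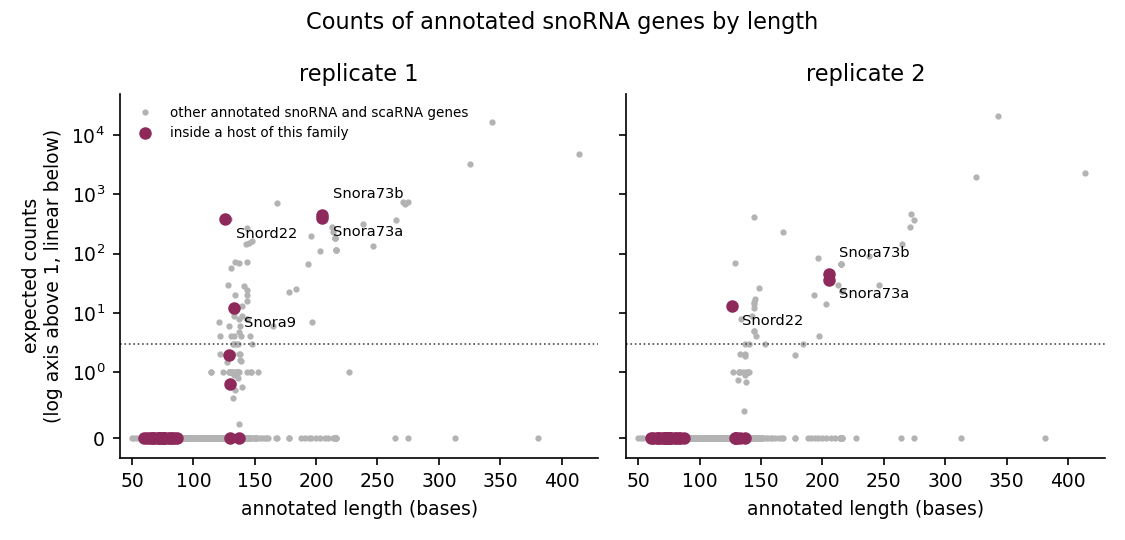
Expected counts against annotated length for all annotated snoRNA and scaRNA genes (grey) and for the loci inside the 8 hosts (purple), in replicates 1 and 2; the dotted line marks 3 counts. Every locus under 100 bases is at 0, and Snora73b, Snora73a and Snord22 lie above the line in both libraries with higher counts in replicate 1.

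In Snhg3 each snoRNA row held more expected counts than the host row. Snora73b held 9.43 times and Snora73a 8.47 times the host's expected counts in replicate 1, and 1.73 and 1.38 times in replicate 2. Rcc1, which overlaps Snhg3 on its strand and also holds 2 annotated snoRNAs, is not in these ratios. It had 110 and 45 counts. Snord22 held 1.07 times the counts of Snhg1 in replicate 1 and 0.0591 times in replicate 2. Snora73a and Snora73b have 205 bases each, are 96.6% identical and differ at 7 positions, counted from the 5′ end with the base of Snora73a first: G3A, G54A, A111G, T164C, G203A, T204A and T205A. How the quantifier divided reads shared by copies this alike is not known, so each copy's own count is uncertain. Snora9, in Snhg15, had 11.9 counts in replicate 1 and 0 in replicate 2.

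The promoters are shown because host genes are known for TATA and TOP motifs, and because TPM can be summed over transcripts by their annotated 5′ end. RefSeq (GRCm38.p6) gave 8 promoters for 7 of the hosts. The windows run from 40 bases before the start to 25 bases from it, 5′ to 3′ on the gene's strand. Capitals mark the letters TATA beginning 40 to 20 bases before the start, and a TOP-like run, which is a C followed by at least 4 C or T letters and begins within 5 bases of the start. Both were searched on the gene's strand only, and overlapping TATA matches are merged. The windows are chr1:161034561-161034625 and chr1:161035126-161035190 for the upstream and downstream start of Gas5, chr19:8723447-8723511 for Snhg1, chr4:132353662-132353726 for Snhg3, chr9:88522873-88522937 for Snhg5, chr3:123508312-123508376 for Snhg8, chr4:132308638-132308702 for Snhg12 and chr11:6528736-6528800 for Snhg15.
Gas5 upstream start: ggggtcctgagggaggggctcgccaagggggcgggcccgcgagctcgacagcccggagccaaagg
Gas5 downstream start: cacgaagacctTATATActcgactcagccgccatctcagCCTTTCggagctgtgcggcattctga
Snhg1: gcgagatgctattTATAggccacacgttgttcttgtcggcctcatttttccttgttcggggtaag
Snhg3: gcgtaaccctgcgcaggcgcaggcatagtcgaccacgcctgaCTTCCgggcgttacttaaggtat
Snhg5: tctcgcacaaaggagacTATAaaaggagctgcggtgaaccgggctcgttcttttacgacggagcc
Snhg8: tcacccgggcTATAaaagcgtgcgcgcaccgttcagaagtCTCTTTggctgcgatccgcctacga
Snhg12: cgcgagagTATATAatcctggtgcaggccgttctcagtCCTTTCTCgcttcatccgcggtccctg
Snhg15: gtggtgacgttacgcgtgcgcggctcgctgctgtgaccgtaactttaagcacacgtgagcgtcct

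TATA letters lay in 5 of the 8 windows, at Snhg1, Snhg5, Snhg8, Snhg12 and the downstream start of Gas5, between 23 and 32 bases before the start. They lay in 5.81% of all 32851 RefSeq promoters and in 9.21% of 76 ribosomal protein promoters. A TOP-like run lay at 4 of 8, in Snhg3, Snhg8, Snhg12 and the downstream start of Gas5, against 18.3% of all promoters and 42.1% of ribosomal protein promoters. Both motifs together occurred at the downstream Gas5 start, Snhg8 and Snhg12, or 3 of 8, against 1.08% of all promoters and 7.89% of ribosomal protein promoters. In the whole 300 bases of each promoter, both strands, CACGTG was found in Snhg15 alone (7.15% of all promoters). The letters TGACGTCA were found in Snhg15 and at the downstream Gas5 start (1.79%). A match describes letters and is no sign of binding.

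Most Gas5 TPM was assigned to transcripts annotated at the downstream start. Transcripts whose annotated 5′ end lies within 100 bases of it held 93.2% of Gas5 TPM in replicate 1 and 84.0% in replicate 2, against 0.419% and 0% for the upstream start. The start with both motifs thus held most of the TPM in both libraries. Only Gas5-217 is annotated within 100 bases of the upstream start, so the share there is limited by the annotation. Annotated 5′ ends do not measure where the RNA began. The share at the printed start was 100% in both libraries for Snhg8, 74.7% and 98.8% for Snhg12, and 65.9% and 75.8% for Snhg3. For Snhg1 it was 70.8% and 77.3%, but 23.3% and 31.9% in the second quantifier, an alternative chosen after seeing the data, so whether most Snhg1 RNA began there depends on the quantifier. It was 57.0% and 58.9% for Snhg5. For Snhg15 it was 44.0% and 25.2%, so most of its TPM was on transcripts with other annotated 5′ ends.

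Related genes give the setting. Of 15 other non-coding hosts listed, 12 were found by symbol, and 4 reached 1 TPM in both libraries: Zfas1 at 63.6 and 30.3 TPM, Snhg20 at 7.41 and 5.74 TPM, Epb41l4aos at 4.97 and 3.80 TPM, and Snhg17 at 4.21 and 4.19 TPM. The first quantifier gave the 12 a median of 0.655 and 0.775 TPM in replicates 1 and 2, below the lowest of the 8 hosts. That contrast depends on the quantifier, since 9 of the 12 reached 1 TPM in both libraries in the second. Below 1 TPM in both libraries were Snhg10, Snhg11, and, listed at 0 in both, Meg3, Rian and Snhg18. The second quantifier gave Rian 3.32 and 4.95 TPM and Snhg11 1.56 and 3.53 TPM. Snhg10, Meg3 and Snhg18 stayed below 1 TPM there. All 25 listed protein-coding hosts reached 1 TPM and 23 reached 10 TPM, with medians of 48.2 and 31.0 TPM. Hspa8, which encodes a constitutive chaperone, led with 314 and 164 TPM, followed by the translation factor gene Eif4a1 with 161 and 114 TPM. Gas5 lay near the middle of that list.

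Genes for the proteins that bind and assemble snoRNAs mostly lay below 10 TPM. Of 16, 10 reached 1 TPM in both libraries and only Nop56, a core box C/D protein, reached 10 TPM, at 13.9 and 11.2 TPM. Its partner Nop58 had 13.4 and 5.84 TPM. The median was 1.70 and 1.42 TPM, and Shq1, an H/ACA assembly factor, was the 1 member below 1 TPM in both (0.96 and 0.85 TPM). All 16 nonsense-mediated decay factors reached 1 TPM and 7 reached 10 TPM, with medians of 9.76 and 6.81 TPM. The kinase gene Smg1 was highest at 54.5 and 38.9 TPM. For scale, 39.9% of protein-coding genes reached 1 TPM and 14.9% reached 10 TPM.

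Of 17 genes of the nuclear exosome, which trims and degrades nuclear RNA, and its adaptors, 15 reached 1 TPM and 5 reached 10 TPM, with medians of 3.33 and 3.62 TPM. The adaptor genes Rbm7 (75.9 and 50.6 TPM) and Pabpn1 (34.4 and 23.4 TPM) stood above the exosome subunits. Exosc4 and Exosc2 had the lowest levels in replicate 2 (0.55 and 0.88 TPM) and were above 1 TPM in replicate 1. All 12 regulators of TOP-message translation reached 1 TPM and 4 reached 10 TPM, with medians of 8.57 and 7.08 TPM. Larp1, which binds TOP motifs, had 45.6 and 26.3 TPM, and Rheb, an activator of mTOR, 24.4 and 17.9 TPM.

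The libraries held 23630328 and 15687634 expected counts on annotated genes. All 7 macrophage markers reached 10 TPM in both libraries. Of the markers of other cells, none of 5 neutrophil, 5 lymphocyte, 3 mast cell and basophil and 4 stromal and endothelial genes reached 1 TPM in both. Of 4 erythroid and megakaryocyte markers only Pf4 did, at 23.3 and 17.5 TPM. In the second quantifier Pecam1, a stromal and endothelial marker, also reached 1 TPM in both libraries, at 1.59 and 5.29 TPM. In the first quantifier the summed neutrophil markers came to 1.24 and 0.28 TPM in replicates 1 and 2, and those of lymphocytes 0.07 and 0.11 TPM.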

How the data were processed

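For each library the authors deposited RSEM-format tables of genes and transcripts, holding expected counts and TPM, and a kallisto-format table of transcripts (the second quantifier), holding estimated counts and TPM, per the file headers. The build is mm10 and the annotation GENCODE M21, per the notes deposited with the files, which state that the former derive from alignments to the transcriptome and the latter from reads. The gene tables also hold deposited bounds of a TPM interval, a signal of unstated confidence level. The sources used here name no tool versions. Rows outside the annotation held 1.19% and 0.215% of expected counts and were left out. The second quantifier held 32262178 and 27066870 counts. Nothing says that the replicates came from separate animals, so their spread may be technical.

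Expected counts were rounded and scaled by TMM (edgeR 4.0.16, R 4.3.3) over genes averaging at least 10, and log2 ratios used a prior count of 0.5. Other steps used Python 3.11.15, pandas 2.3.3 and scipy 1.17.1. The ratio step was tested on simulated data. Intervals are exact (Clopper-Pearson) at 95%, rest on reads with no recorded molecular identifiers and cover counting error only. With 1 group there is no test. The members and lists were chosen with earlier results of these data known. By rule, the text names all members, their snoRNAs, the leading transcripts of each member, the neighbours by level, and in each list the 2 highest genes and those below 1 TPM in both libraries; Epb41l4aos, Snhg17, Exosc2 and Exosc4 were named after their values were seen. Not every gene under this rule is reported here. Alternatives were the second quantifier, the posterior mean TPM, other scalings, floors, filters and definitions, DESeq2 1.42.0 size factors, and each library alone. The second quantifier was applied to start shares and to single snoRNAs only after the data had been seen.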

Additional observations from a re-analysis of the deposited data

Results flagged for a closer look

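Snord47, a 77-base snoRNA in Gas5, had 9.40 estimated counts in replicate 1 and 1.39 in replicate 2 in the second quantifier, while the gene tables list it at 0 in both libraries. It is listed because 9.40 lies above the floor of 3 counts, in a table that the snoRNA counts of the report do not use. Its effective length in the gene tables was 0 in both libraries, so the 0 there sets no limit on its level. All loci under 100 bases inside the 8 hosts together held 18.8 and 4.55 counts in the second quantifier.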

How the results depend on the processing

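The median level of the 8 hosts was 7.46 TPM. It was 3.85 TPM in the second quantifier and 26.7 TPM when TPM was rescaled over protein-coding and long non-coding genes outside the mitochondrial genome, and 5.72 to 9.21 TPM with 1 replicate left out. The number of hosts at 10 TPM in both libraries, 1 in the report, was 2 by the posterior mean, 8 after rescaling, 5 with a floor of 5 TPM, and 1 to 4 with 1 replicate left out. At 100 TPM, rescaling gave 1 host, Gas5, in place of 0. The median log2 ratio between replicates moved from -0.14 to -0.66 on deposited TPM with a pseudocount of 0.1, where 1 host, Snhg8 (-1.05), passed 2-fold. The median share on snoRNA-keeping transcripts was 36.0% over both libraries. It was 59.9% by expected counts and 34.2% when transcripts of the retained_intron biotype were counted instead. The biotype gave 52.4% for Gas5 and 0% for Snhg12 and Snhg15. Requiring a fixed minimum part of a snoRNA in the exon, in place of the whole, gave 34.1% and 24.2% for Snhg3. Of the other non-coding hosts, 9 in place of 4 reached 1 TPM in the second quantifier. The causes were not tested, apart from the rescaling, the lower floor and the single libraries, which change the counts by construction. The ratio of Gas5, higher in replicate 2 by TMM, turned to a log2 value of -0.20 on deposited TPM with a pseudocount of 0.1 and of -0.20 with 1. Depth limits Snhg3 most, with 26.3 counts in replicate 2. No paired analysis was possible because the series holds 1 group.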
